A study of Mus musculus with 5 samples.

Results

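Polycomb group proteins keep genes silent through 2 complexes that work on histones. Polycomb repressive complex 2 (PRC2) methylates lysine 27 of histone H3, the residue whose acetylated form, H3K27ac, marks active promoters and enhancers, so that a histone tail carries either the methyl or the acetyl mark there. Polycomb repressive complex 1 (PRC1) reads the methyl mark through its chromodomain proteins and attaches ubiquitin to histone H2A. In blood stem cells both complexes are known for holding back differentiation genes and, through Bmi1, the cell cycle inhibitor locus Cdkn2a.

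Described here are 10 genes that encode these complexes, taken by name from among 21887 protein-coding genes. The PRC2 members are Ezh1, Ezh2, Eed, Suz12 and Jarid2. The PRC1 members are Bmi1, Ring1, Rnf2, Cbx2 and Cbx7. For each gene, H3K27ac peaks were read at its ends, in its body and within 50 kb, to see how these repressor genes were themselves marked.

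Mouse bone marrow cells had been sorted as CD45.2+, Lineage-, Sca1+ and Kit+ and are labelled HSC/MPP, that is, haematopoietic stem cells and multipotent progenitors. All carried a deletion of Mll3 and Mll4, the genes of a pair of enhancer-associated histone methyltransferases, and the labels name no Cre driver, strain or age. H3K27ac ChIPmentation, an immunoprecipitation in which the Tn5 transposase inserts the sequencing adapters, gave 4 libraries, and 1 input library of the same genotype served as background. The authors deposited 1 list of 22948 peaks for the 4 libraries together. There was thus no value of a single library, no replicate error and no other genotype, and the depth is unknown. Every comparison below is a description without a test.

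Each peak carries the authors' fold value (column 7 of the list), read here as H3K27ac over background at the summit, and the authors' −log10 q. Over the list the fold ran from 1.44 to 34.05 with a median of 3.27. A peak was counted at a gene end when it overlapped the 1 kb on either side of either end. Of all protein-coding genes, 36.2% had such a peak. Of marker genes of the labelled cells, 6 of 11 had one, with folds from 3.21 to 12.22. Those without were Ly6a, which encodes Sca1, and Cd34, Mecom, Hlf and Procr. Peaks lay at the ends of 4 of 4 B-cell markers (folds from 4.4 to 12.42), 0 of 4 T-cell markers, 0 of 4 myeloid markers and 1 of 4 erythroid markers (Hbb-bt, 3.92). The T-cell markers were Cd3e, Cd4, Cd8a and Lck, and Lck had 1 peak in its body. Cd3d, which was not on that list, had an end peak with a fold of 4.895, so the T-cell count depends on the markers chosen. Whether B-lineage cells had a part in the values of the Polycomb genes was not tested. In such bulk samples, fewer marked cells and a weaker mark per cell cannot be told apart.

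Of the 10 Polycomb genes, 8 had a peak at an end, or 80.0% against the 36.2% of all protein-coding genes. They were all 5 PRC2 members and, of the PRC1 members, Bmi1, Ring1 and Rnf2. Cbx2 and Cbx7 had none. The 8 genes had 13 such peaks between them, all at the end where transcription starts. Strand and starts came from RefSeq promoters of GRCm38.p6, which held 9 of the 10 members (not Cbx2). Of the 9, 8 had a peak within 1 kb of a start, against 38.0% of the 17492 protein-coding genes with a start in that table.

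**Figure D1:**
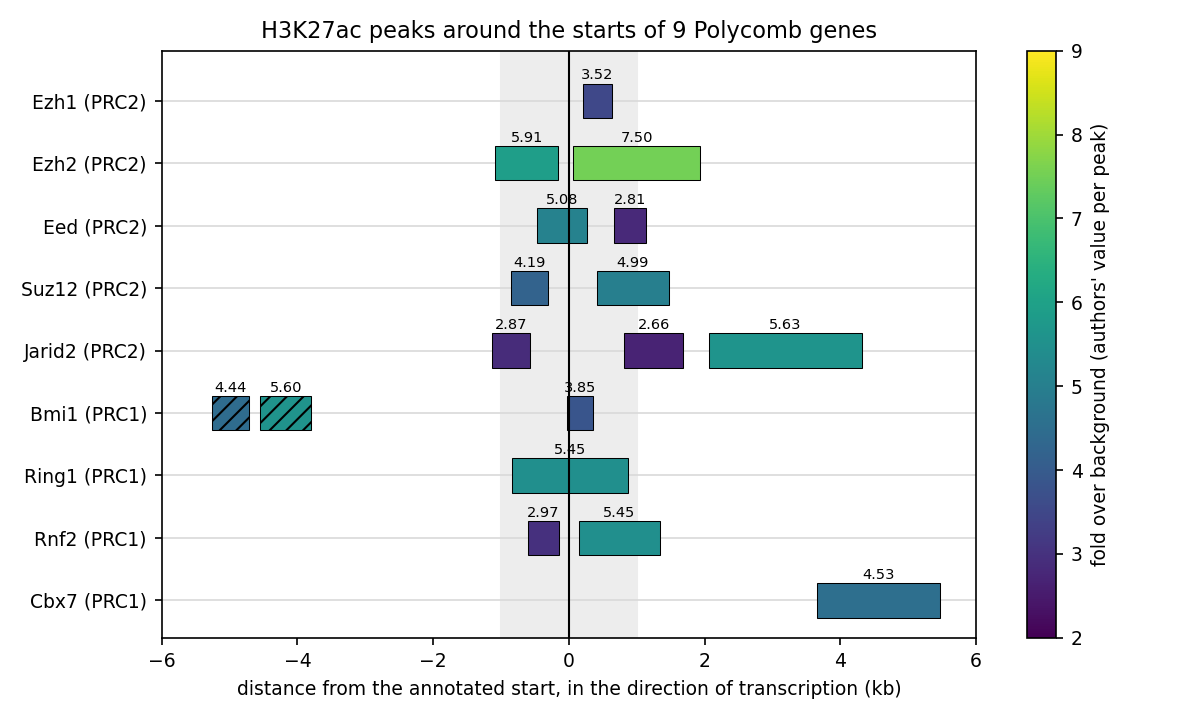
Each bar is an H3K27ac peak drawn to scale along distance from the annotated start in kb (for Jarid2 the first of 2 starts), positive in the direction of transcription, with its fold over background as colour and number. Grey shading marks 1 kb on either side of the start, and hatched bars lie at the ends of a neighbouring gene. Ezh2, Suz12, Jarid2 and Rnf2 have a peak on each side of the start, Eed, Bmi1 and Ring1 have a peak over it, Ezh1 has a peak just downstream of it, and Cbx7 has none within 1 kb.

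The 2 catalytic subunits of PRC2 differed. Ezh2, the methyltransferase that predominates in dividing cells, had the highest fold of the 10 genes. One peak, on chromosome 6 from 47593097 to 47594964, had a fold of 7.50 and −log10 q of 20.7. The other, from 47595185 to 47596114, had a fold of 5.91 and −log10 q of 13.7. Both lay within 1 kb of an end of F830010H11Rik, a long non-coding RNA gene whose end lies beside the Ezh2 start, so these peaks cannot be assigned to one of the 2 genes. Ezh1, the paralog with the weaker methyltransferase activity that prevails in resting cells, had a single peak of 425 bp on chromosome 11 from 101225834 to 101226258, with a fold of 3.52 and −log10 q of 3.79. The strongest fold at Ezh2 was thus 2.13 times that at Ezh1. The peak of 7.50 had its summit 1002 bp from the gene end and was counted there by overlap. Counted by summit, the strongest folds were 5.91 at Ezh2 and 3.52 at Ezh1. Among the 7929 genes with an end peak, 82.4% had a lower strongest fold than Ezh2 and 24.9% a lower one than Ezh1.

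The non-catalytic core subunits lay close to each other. Eed, which binds the methylated histone tail and stimulates the enzyme, had a peak over its start on chromosome 7 from 89980709 to 89981443, with a fold of 5.08 and −log10 q of 9.80. A weaker peak of 473 bp followed inside the gene, with a fold of 2.81. Suz12, the scaffold of the complex, had peaks on chromosome 11 from 79992248 to 79992792 (fold 4.19, −log10 q 6.27) and from 79993514 to 79994577 (fold 4.99, −log10 q 9.06). The strongest folds of Eed and Suz12 stood just above the median of 4.71 over all genes with a peak at an end, whose interquartile range was 3.52 to 6.55.

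Jarid2, an accessory subunit that helps bring PRC2 to its targets, had the lowest strongest fold in the 1 kb window of the 8 genes with an end peak. On chromosome 13, the peak from 44729635 to 44730203 had a fold of 2.87, and the peak from 44731585 to 44732463 had a fold of 2.66 with −log10 q of 1.22, a q-value above 0.05. The third peak, from 44732835 to 44735094, began 2061 bp from the first annotated start, outside the window, and was counted in the body. It was 2260 bp wide, with a fold of 5.63 and −log10 q of 12.1. Its summit lay 1930 bp downstream of the second of the 2 annotated starts. With a window of 2.5 kb the strongest fold of Jarid2 was 5.63 in place of 2.87.

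In PRC1, the ubiquitin ligases Ring1 and Rnf2 (RING1A and RING1B), which are alternatives to each other in the complex, had the same strongest fold of 5.45 and the same −log10 q of 11.3. The shape differed. Ring1 had 1 peak of 1708 bp over its start on chromosome 17 from 34023808 to 34025515. This peak also reached the 1 kb window of H2-Ke6, its neighbour in the major histocompatibility region, and its summit lay 0.138 kb from Mir219a-1. Rnf2 had a peak of 1191 bp on chromosome 1 from 151499649 to 151500839 and a second of 458 bp, with a fold of 2.97, on the other side of the start. Bmi1, the partner of the ligases that blood stem cells need for self-renewal, had the narrowest peak of the 8 genes. It was 378 bp wide on chromosome 2 from 18676995 to 18677372, with a fold of 3.85 and −log10 q of 4.98. The Commd3 gene ends within 1 kb of that peak. The 2 peaks at the start of Commd3, with summits 4.87 and 4.38 kb upstream of Bmi1, had folds of 4.44 and 5.60.

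The 2 chromodomain genes stood apart from the other 8. Cbx2 had no peak at an end or in its body. Cbx7, whose product is known to favour stem cell self-renewal, had none at either end or at its annotated start. Its body held a peak of 1812 bp on chromosome 15 from 79927173 to 79928984, with a fold of 4.53 and −log10 q of 7.63, whose summit lay 4430 bp downstream of that start. A second body peak, with its summit at -18226 bp from the start and still inside the longest annotated span of the gene, had a fold of 2.64. No peak at an end means that none passed the authors' calling there, not that the mark was absent.

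The 5 PRC2 members with an end peak had strongest folds from 2.87 to 7.50, with a median of 4.99. The 3 PRC1 members with one had 3.85, 5.45 and 5.45, with a median of 5.45. The PRC1 values lay inside the PRC2 range, and the medians differed by -0.46 (PRC2 minus PRC1). The strongest peaks of the PRC2 members were 425, 569, 735, 1064 and 1868 bp wide, with a median of 735 bp. Those of the PRC1 members were 378, 1191 and 1708 bp wide, with a median of 1191 bp. The difference of -456 bp turned to 622 bp when peaks within 1 kb of each other were merged, so the order of the complexes by width depends on how split peaks are counted. Over all genes with a peak at an end, the median width of the strongest peak was 1109 bp.

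**Figure D2:**
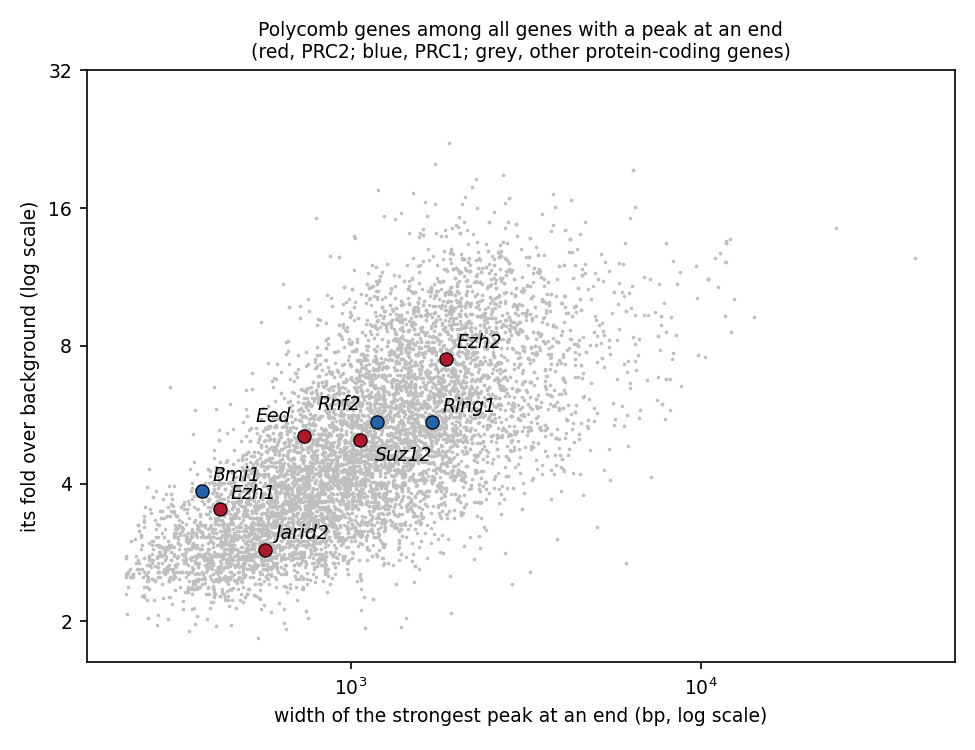
Each point is a protein-coding gene with an end peak, by the width of its strongest such peak in bp and that peak's fold over background, both on log scales. Bmi1, Ezh1 and Jarid2 lie at the narrow and weak side, Ezh2 at 1868 bp and a fold of 7.50, and the red PRC2 points span the blue PRC1 points in fold.

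Of the 8 genes with a peak at the start, 3 had the start under a peak and 4 in a gap between peaks. A start under a peak was found in 52.1% of all genes with a peak within 1 kb of the start. The other was Ezh1, whose single peak began 205 bp downstream of its start. The genes with a gap were Ezh2, Suz12, Jarid2 and Rnf2, with an upstream and a downstream peak within 1 kb of the start. Over all genes with a start in the table this held for 5.69%, and for 15% of those with a peak within 1 kb of it. The gap measured 220 bp at Ezh2, 302 bp at Rnf2, 721 bp at Suz12 and 1381 bp at Jarid2, where it held both starts. At Ezh2 the gap holds for the start at 47595030 alone. The longest annotated span of Ezh2 reaches 47595270, which lies under the upstream peak. The median over all 996 genes with such a gap was 370 bp. The downstream peak was the stronger at Ezh2 (7.50 against 5.91), Suz12 (4.99 against 4.19) and Rnf2 (5.45 against 2.97). At Jarid2 the upstream peak was (2.87 against 2.66), but this order depends on the window. The peak with a fold of 5.63 further downstream lay outside the 1 kb. The downstream peak was the stronger in 52.7% of the 996 genes. With Eed, 5 of the 10 genes had at least 2 peaks at an end, against 8.7% of all protein-coding genes.

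The 250 bases before the start were read from the RefSeq promoters for 5 genes that span the range of the mark: the strongest (Ezh2), its weak paralog (Ezh1), a gene with a gap at its start (Suz12), the narrowest peak (Bmi1) and a start without a peak (Cbx7). Capitals mark matches, on either strand, to 8 strings of letters. These were TTTCCCGC and TTTGGCGC for E2F, CCGGAAGT for ETS factors, GGGCGG for the GC box, CACGTG for the E-box, CCAAT for NF-Y, GCATGCGC for NRF1 and AAGATGGCG for YY1. No match overlapped one of another string, and a match describes the letters, not binding. The start used for Ezh2 lies inside its longest annotated span, which reaches 47595270, so most of its window is inside the gene. All sequences are GRCm38, 5′ to 3′ in the direction of transcription. Ezh2 lies at chr6:47595031-47595280 (minus strand), Ezh1 at chr11:101226464-101226713 (minus strand), Suz12 at chr11:79992856-79993105 (plus strand), Bmi1 at chr2:18676768-18677017 (plus strand) and Cbx7 at chr15:79932647-79932896 (minus strand).
Ezh2: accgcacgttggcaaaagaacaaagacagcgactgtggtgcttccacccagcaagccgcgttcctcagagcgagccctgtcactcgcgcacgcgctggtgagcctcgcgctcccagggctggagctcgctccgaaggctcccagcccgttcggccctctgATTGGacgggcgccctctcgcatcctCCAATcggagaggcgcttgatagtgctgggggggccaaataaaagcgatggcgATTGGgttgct
Ezh1: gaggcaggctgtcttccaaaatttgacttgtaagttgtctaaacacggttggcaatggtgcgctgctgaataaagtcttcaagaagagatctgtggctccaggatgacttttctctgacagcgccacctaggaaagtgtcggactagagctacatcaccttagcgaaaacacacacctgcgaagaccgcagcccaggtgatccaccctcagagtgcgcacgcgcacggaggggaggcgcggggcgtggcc
Suz12: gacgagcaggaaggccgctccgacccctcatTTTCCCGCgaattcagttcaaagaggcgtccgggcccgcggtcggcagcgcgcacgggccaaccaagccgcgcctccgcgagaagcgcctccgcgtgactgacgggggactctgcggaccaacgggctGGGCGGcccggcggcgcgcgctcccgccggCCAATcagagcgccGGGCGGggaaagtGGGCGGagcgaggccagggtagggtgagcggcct
Bmi1: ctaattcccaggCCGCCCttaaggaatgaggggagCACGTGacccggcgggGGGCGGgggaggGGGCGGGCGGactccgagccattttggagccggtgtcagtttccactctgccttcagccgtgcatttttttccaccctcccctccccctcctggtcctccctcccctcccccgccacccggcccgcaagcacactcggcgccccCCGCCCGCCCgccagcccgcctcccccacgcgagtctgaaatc
Cbx7: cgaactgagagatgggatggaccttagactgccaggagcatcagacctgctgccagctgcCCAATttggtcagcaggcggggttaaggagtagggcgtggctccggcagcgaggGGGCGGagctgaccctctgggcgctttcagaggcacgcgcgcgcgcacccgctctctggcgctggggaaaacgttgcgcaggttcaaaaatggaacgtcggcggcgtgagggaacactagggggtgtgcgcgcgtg

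All 10 member promoters (Jarid2 has 2) were above the median of 10 CG dinucleotides over 21263 promoters of protein-coding genes. The counts were 12 at Eed, 14 at Ezh1, 20 at Rnf2, 21 at Bmi1, 23 at Ezh2, at Cbx7 and at the first Jarid2 start, 22 at the second, 30 at Ring1 and 37 at Suz12. Eed and Ezh1 were the poorest in CG and Suz12 exceeded 97.2% of promoters. Cbx7, with no peak at its start, had as many CG as Ezh2, with the strongest. The Ezh2 promoter held CCAAT 3 times, a number reached by 3.36% of promoters, while 35.4% held it at least once, as did 4 of the 10 member promoters. The Bmi1 promoter held GGGCGG 6 times, some of them overlapping, a number reached by 1.21% of promoters. At least 1 was found in 42.6% of all promoters and in 7 of the 10 member promoters, at Bmi1, Cbx7, Jarid2, Ring1, Rnf2 and Suz12. TTTCCCGC was found at Suz12, and in 1.19% of all promoters. CACGTG was found at Bmi1, and in 6.63% of all. TTTGGCGC, CCGGAAGT, GCATGCGC and AAGATGGCG were in none of the members' windows, and in 0.508%, 3.79%, 2.93% and 0.72% of all promoters.

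Inside the genes, away from the ends, 3 of the 10 members held peaks, against 16.6% of protein-coding genes. Jarid2 had 6, Ezh2 had 3 and Cbx7 had 2. These are the 3 longest members, at 191 kb, 65.0 kb and 55.3 kb, and per 100 kb they held 3.14, 4.62 and 3.61 peaks. Body peaks were mostly weak. The 3 at Ezh2 had folds of 2.51, 2.63 and 2.57 and q-values above 0.05. With a q-value limit of 0.05, 2 members were left with body peaks, Jarid2 and Cbx7, against 14.2% of protein-coding genes. At Jarid2, apart from the peak of 5.63 next to the start, folds ran from 2.32 to 2.87. Over all genes the median fold was 2.90 for body peaks and 4.25 for peaks at ends, and 30.5% of body peaks had a q-value above 0.05.

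Distal peaks were those outside the gene with a summit within 50 kb of it and over 1 kb from the ends of every protein-coding gene. Such peaks lay near 7 of the 10 members, against 36.2% of protein-coding genes. Within 25 kb they lay near 3 members, against 20.9%, and with a fold of at least 4 near 2, against 16.1%. Within 100 kb they lay near 9 members, against 54.3%, and with a q-value limit of 0.05 near 6, against 32%. Near the PRC2 members there were 11, with a median fold of 2.72 and a median width of 560 bp, and near the PRC1 members 5, with a median fold of 3.85 and a median width of 2478 bp. All but 2 of these PRC1 peaks were near Cbx7. The median fold of distal peaks near any gene was 3.06.

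**Figure D3:**
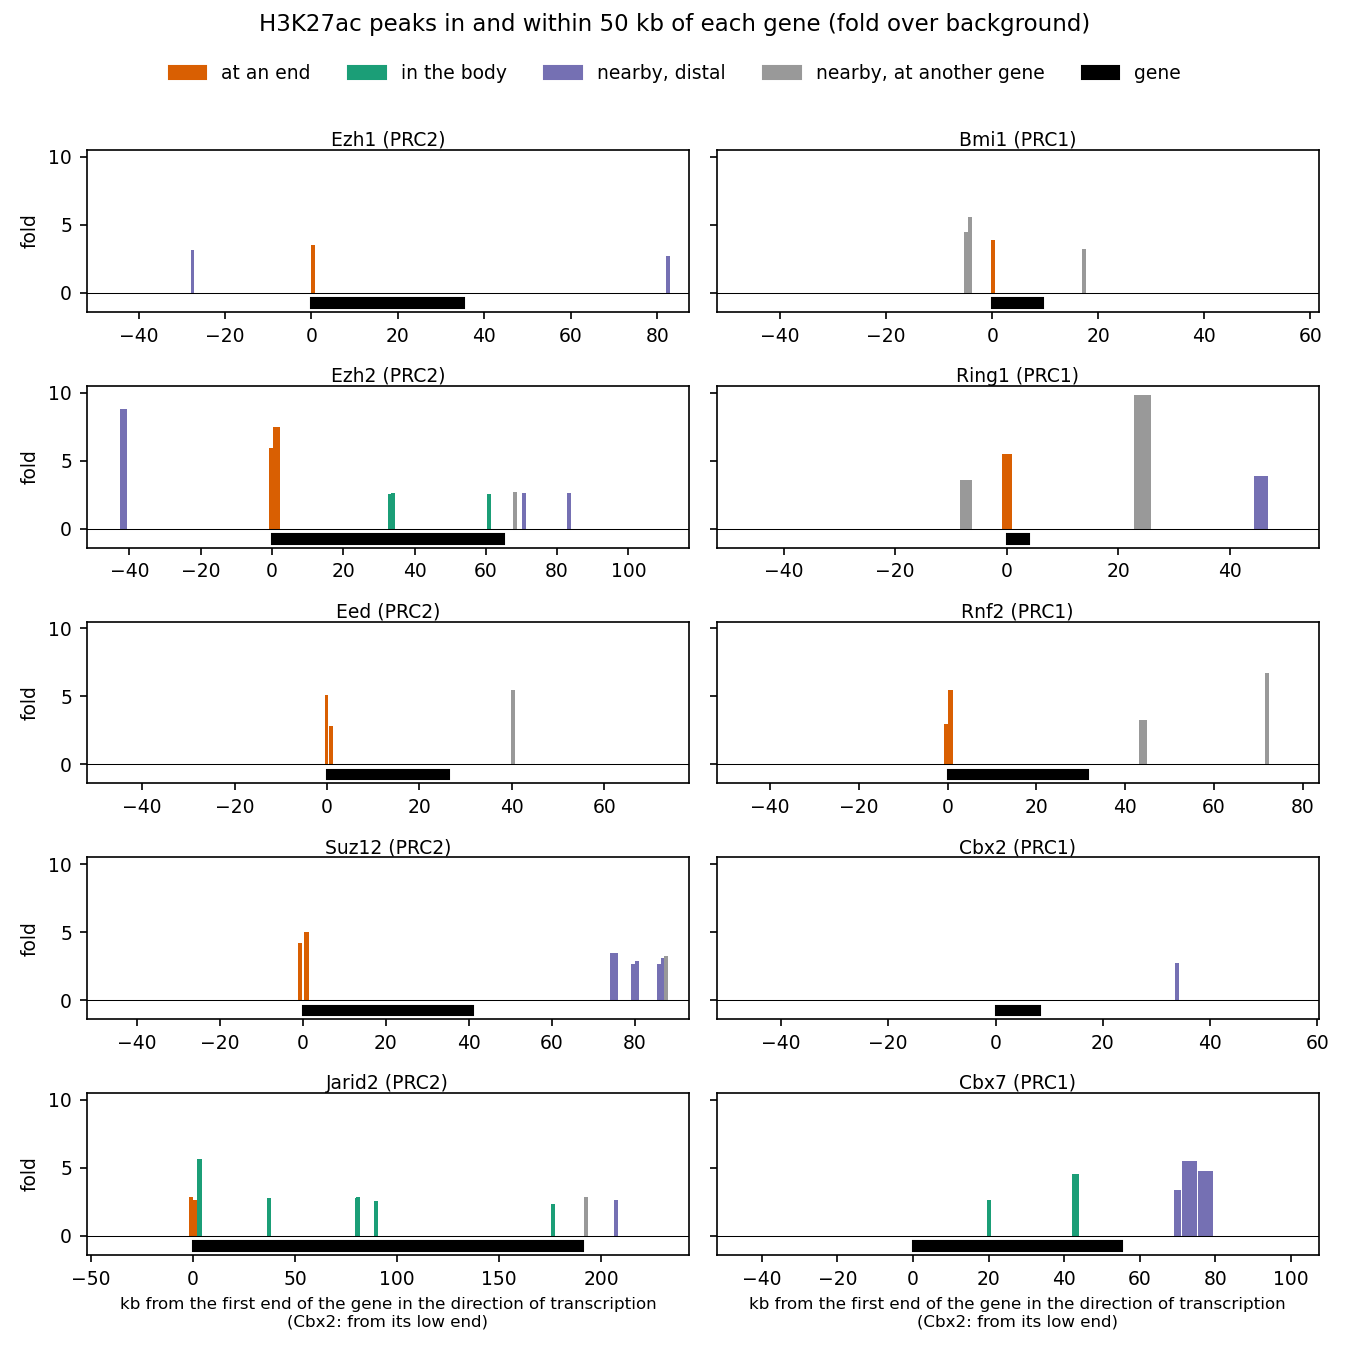
Bars are H3K27ac peaks in and within 50 kb of each gene, by distance in kb along the direction of transcription (for Cbx2, from its low end) and by fold over background; narrow peaks are drawn at a minimum width, and the black bar is the gene. The tallest distal bar, at Ezh2, has a fold of 8.79, and the tallest bar at a neighbouring gene, near Ring1, has 9.83.

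The strongest distal peak near a member was 41.4 kb upstream of Ezh2. It lay on chromosome 6 from 47635833 to 47637926, was 2094 bp wide, and had a fold of 8.79 and −log10 q of 28.3, above both peaks at the start. The nearest other gene of any kind was the long non-coding RNA gene Gm40371 at 7.92 kb, and the nearest other protein-coding gene was Gm40369 at 16.2 kb. The list does not show which gene the region acts on. On the other side, 2 weak peaks near Cul1 had folds of 2.60 and 2.63 and q-values above 0.05.

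Near Cbx7, 3 wide peaks lay on chromosome 15 between 79891742 and 79902231. Their folds were 4.79, 5.51 and 3.36 and their widths 3922, 4113 and 1887 bp. The summits lay between 14.5 and 20.5 kb from the low end of Cbx7, which is its far end by the annotated strand, and inside Apobec3, a cytidine deaminase gene of antiviral defence that overlaps that end. The first of them, with the fold of 4.79, also covers the low end of Apobec3 at 79892058 and counts as an end peak of that gene by overlap, and it was kept as distal because its summit lies over 1 kb from that end. All 3 were wider than any end peak of the 10 members. Near Suz12, 5 distal peaks with folds from 2.63 to 3.49 lay 34.1 to 46.0 kb beyond the gene, towards Crlf3. Those with a fold of 2.63 had q-values above 0.05. The peak nearest to Crlf3 reached its 1 kb window and was kept as distal because its summit lay 1.07 kb from that gene. Near Ezh1, 2 peaks had folds of 2.72 and 3.18, and near Jarid2 1 peak had a fold of 2.66 and a q-value above 0.05. Near Ring1, 1 peak with a fold of 3.85 lay 0.43 kb from H2-K2, a transcribed pseudogene. Eed, Bmi1 and Rnf2 had no distal peak. Summits at the ends of other genes were counted apart, and the strongest was at H2-K1, 20023 bp from Ring1, with a fold of 9.83.

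Cbx2 lies 5.03 kb from Cbx8, another chromodomain gene of PRC1. The single peak within 50 kb of Cbx2, on chromosome 11 from 119056717 to 119057078, was 362 bp wide with a fold of 2.75 and lay 16 kb from the nearest end of Cbx8. Cbx8 had no peak at an end either.

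Further genes of the 2 complexes were read in the same way. Of 8 further PRC2 genes 5 had a peak at an end, with a median strongest fold of 6.0. The highest were Mtf2 (8.36), an accessory subunit that binds CpG islands, Lcor (6.52) and the histone chaperone Rbbp4 (6.0). Phf1, Epop and Aebp2 had none. Of 17 further PRC1 genes 10 had one, with a median of 5.17. The highest was Kdm2b (9.87, 5778 bp wide), which brings a variant PRC1 to CpG islands, followed by Pcgf3 (6.33) and Pcgf5 (6.21), relatives of Bmi1. Pcgf1, Pcgf2, Pcgf6, Cbx6, Cbx8, Phc2 and Auts2 had none. Together 15 of these 25 genes, or 60.0%, had a peak at an end, against 80.0% of the 10 members and 36.2% of all genes.

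Genes that undo the Polycomb marks included the strongest end peaks of the Polycomb lists. In the complex that removes ubiquitin from histone H2A, 3 of 4 genes had a peak at an end. The deubiquitinase gene Bap1 had a fold of 11.82 and its cofactor gene Asxl2 one of 11.08, while Asxl1 had 3.46 and Asxl3 no peak. Of the demethylase genes of the H3K27 methyl mark, Kdm6a, whose product belongs to the Mll3 and Mll4 complexes, had a fold of 7.41. Kdm6b had no peak at an end and 3 in its body. Textbook targets of Polycomb silencing had no peak at an end in 10 of 10 cases, and none in the body or as a distal peak within 50 kb. They were the cell cycle inhibitor genes Cdkn2a and Cdkn2b and the developmental genes Hoxd11, Hoxd13, Pax6, Olig2, Gata4, Gata6, Sox17 and Nkx2-5. The background shares were 36.2% for end peaks, 16.6% for body peaks and 36.2% for distal peaks. Most protein-coding genes thus lacked each class as well, and the difference from these 10 targets was not tested.

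**Figure D4:**
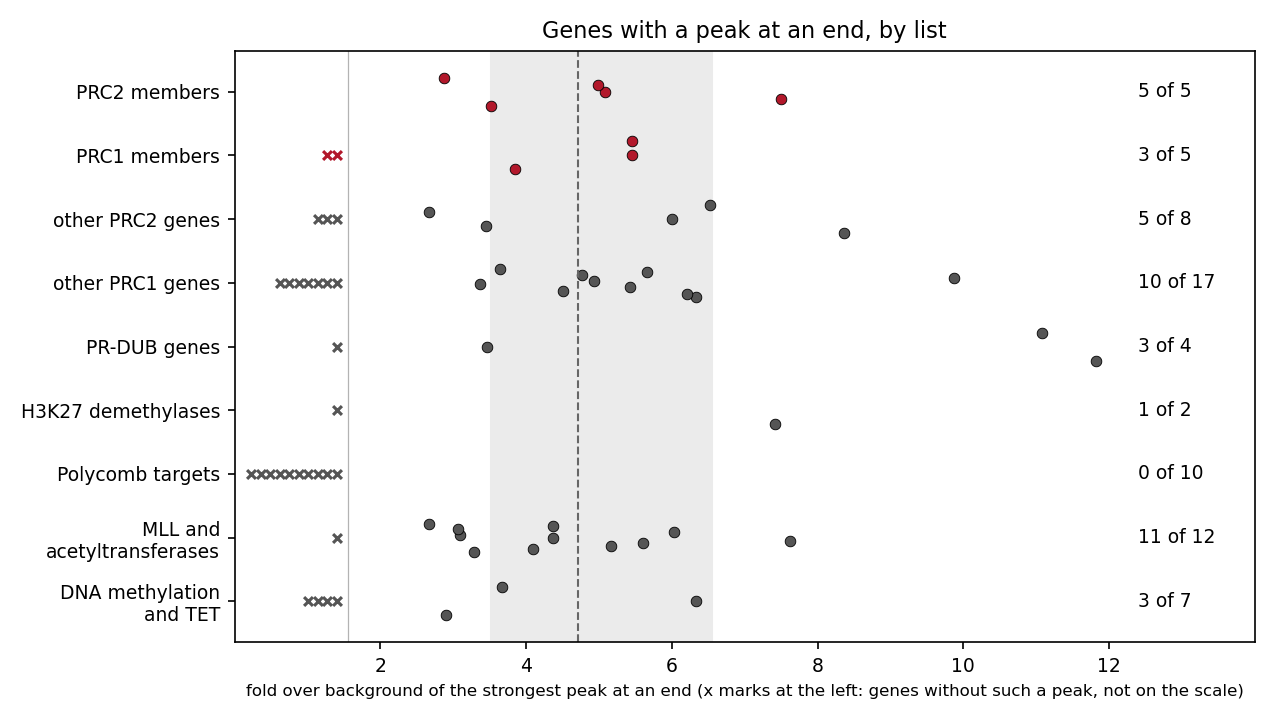
Each dot is a gene with an end peak, placed by the fold over background of its strongest such peak, and each cross at the left is a gene without one; the dashed line and grey band are the median and interquartile range over all genes with a peak at an end. Counts at the right run from 0 of 10 Polycomb targets to 5 of 5 PRC2 members.

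A pair of other chromatin lists is set beside these. Of 12 genes of MLL-family complexes and H3K27 acetyltransferases, 11 had a peak at an end, or 91.7% against 36.2% of all protein-coding genes. The median strongest fold was 4.37, with the highest at the acetyltransferase gene Ep300 (7.62), and Ash2l had no end peak. The 11 include Kmt2c (5.17) and Kmt2d (5.6), which are Mll3 and Mll4, the genes deleted in these cells. Of 7 DNA methylation and TET genes 3 had an end peak, with a median of 3.67. That share of 42.9% was near the 36.2% of all protein-coding genes. The highest fold was at Tet2 (6.33), and Dnmt1, Dnmt3a, Dnmt3b and Tet1 had no end peak. The median over the 8 Polycomb members with a peak was 5.03. Differences between these lists were not tested.

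The count stayed at 8 of 10 genes with a q-value limit of 0.05, against 34.4% of all protein-coding genes, and when counted at the annotated start alone, against 38.0% of those with a start in the table. With −log10 q of at least 5, 5 genes were left (Ezh2, Eed, Suz12, Ring1 and Rnf2), against 24.0% of all protein-coding genes, and Bmi1, at 4.98, was just outside. The same 5 were left with a fold of at least 4, against 23.2% of all protein-coding genes.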

How the data were processed

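Per the submitters' processing notes BWA, MACS2 and mm10 were used; their roles and versions are not given in the sources used here. The deposited list has no header. Its fold values (read as a ratio of H3K27ac over background), −log10 p-values, −log10 q-values and scores are the authors' own per peak, from 4 pooled H3K27ac libraries over 1 input library; scores were not used further. Gene spans came from an NCBI RefSeq table of GRCm38.p6 (the assembly of mm10), starts and sequences from a RefSeq promoter table.

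Peaks were assigned in Python 3.11.15 (pandas 2.3.3) by overlap of at least 1 bp with 1 kb on either side of a gene end, otherwise by summit in the body or within 50 kb. The assignment was tested on simulated peaks at genes far from one another, which does not cover peaks shared by neighbouring genes. All 10 genes are described; of further lists, the highest and those without a peak are named. Members, lists and alternatives were chosen with earlier results of these data known. Pooled values allow no error or test. Calls can depend on the depth, which is unknown, and on how the caller split neighbouring peaks. In the further lists, 2 genes are not reported here and were left out of the counts.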

Additional observations from a re-analysis of the deposited data

How the results depend on the processing

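Of 97 recomputed values, 87 stayed within a factor of 1.5 of the reported value, 9 moved further and 1 changed direction. Strongest folds of single members that a setting left without an end peak are not among the 97. These were Ezh1, Jarid2 and Bmi1 with −log10 q of at least 5, and Jarid2 when counted by summit. With −log10 q of at least 5, 5 members had a peak at an end (24.0% of all protein-coding genes) and 3 a distal peak (17.1%). With a fold of at least 4, these were 5 (23.2%) and 2 (16.1%). With 25 kb in place of 50 kb, 3 members had a distal peak (20.9%). With 100 kb it was 9 members (54.3%), and with a q-value limit of 0.05 it was 6 (32%), beside the 7 (36.2%) reported. Merging peaks within 1 kb set the median width of the PRC2 members at 2330 bp and turned the difference in width to 622 bp, since it joins split peaks. With a 2.5 kb window that difference was -127 bp, since Jarid2 was then read at its wider peak. Counting by summit left 7 members (33.3% of all genes), without Jarid2, whose 2 summits lie 1012 and 1341 bp from the gene end. The difference in fold stayed between -0.46 and -0.37 in the 6 alternatives tried. Leaving out single libraries was not possible, since the list holds no value of a single library. No paired analysis was possible because no column belongs to a single replicate. The depth is unknown, so the precision of the weak peaks was not measured.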
